A study of Mus musculus with 8 samples.

Results

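Skeletal muscle transcripts were followed through ventral prostate lobes that had been freshly dissected. The group consisted of 10 genes of 36333 in the deposited table, chosen by symbol as core genes of the fast striated fibre, and all 10 were found. They were Myh4, Myh1, Mylpf and Myl1 of the thick filament, Acta1, Tnnt3, Tnni2 and Tnnc2 of the thin filament, the calcium pump gene Atp2a1 and the creatine kinase gene Ckm. The question was how much striated muscle RNA each lobe carried, and in which mice.

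The lobes came from male FVB/N mice at 12 months of age. WT mice were FVB/N wild type, and hSKP2-KI mice were FVB/N animals in which a P2A-linked human SKP2 coding sequence had been placed in exon 1 of the endogenous probasin gene, so that the mouse probasin promoter drives it in the prostate. The hSKP2-KI males were offspring of heterozygous knock-in females and wild type FVB/N males. Which of the founder lines was sequenced is not given in the sources used here. There were 4 hSKP2-KI and 4 WT libraries, each labelled as a biological replicate. They were made from poly-A RNA and read in pairs of 150 bases. Values are TPM, which divide the reads on a gene by its transcript length and scale each library to a total of 1000000. The study's methods name a read number for the sequencing as a whole, but the read counts of a gene or library cannot be taken back from TPM. A value of 0 is therefore given as listed at 0 and is not read as absence.

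Striated muscle shortens when myosin heads of the thick filament pull on actin of the thin filament. Troponin on the thin filament binds calcium and opens the actin sites, the sarcoplasmic calcium pump takes the calcium back up, and creatine kinase refills ATP from phosphocreatine. The prostate has its own contractile cells, the smooth muscle cells of the stroma, which use a different myosin heavy chain and no troponin complex of the striated kind. Striated fibres lie close to the prostate in the urethral sphincter and the pelvic wall.

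The stretches just upstream of the RefSeq start sites of 4 of the genes are shown because these genes separate into the kinds of pattern described below. Acta1 and Tnnc2 were found in every library, Myh4 was near 0 in most libraries, and Myh1 was intermediate. Each run is the 250 bases before the start given by RefSeq for build GRCm38.p6, written 5′ to 3′ on the strand of the gene. The gene positions given further below are from GENCODE, and the starts differ. By those positions, most of the Tnnc2 stretch and a part of the Myh1 stretch lie inside the gene. Capitals mark matches, on either strand, to the MCAT element CATTCC, the TATA box TATAAA, the MEF2 motif and the CArG box. In Myh1 and Myh4 the MEF2 match overlaps a TATA match on the other strand. The E-box CANNTG was also searched on both strands and is not marked.
Acta1, chr8:123894776-123895025, minus strand: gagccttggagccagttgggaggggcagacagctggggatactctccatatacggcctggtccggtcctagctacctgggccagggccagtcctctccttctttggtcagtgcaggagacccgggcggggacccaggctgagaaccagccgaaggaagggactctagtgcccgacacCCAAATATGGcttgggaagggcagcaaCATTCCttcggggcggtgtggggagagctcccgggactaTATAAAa
Tnnc2, chr2:164779735-164779984, minus strand: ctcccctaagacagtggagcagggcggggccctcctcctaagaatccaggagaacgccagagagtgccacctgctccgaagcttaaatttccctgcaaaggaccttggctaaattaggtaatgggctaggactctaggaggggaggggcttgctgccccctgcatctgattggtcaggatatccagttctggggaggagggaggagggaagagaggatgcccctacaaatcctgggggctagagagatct
Myh1, chr11:67199852-67200101, plus strand: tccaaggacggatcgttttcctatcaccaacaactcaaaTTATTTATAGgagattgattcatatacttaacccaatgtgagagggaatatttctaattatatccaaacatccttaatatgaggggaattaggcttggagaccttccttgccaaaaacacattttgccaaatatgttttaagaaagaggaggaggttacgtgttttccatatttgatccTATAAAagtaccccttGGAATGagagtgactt
Myh4, chr11:67237562-67237811, plus strand: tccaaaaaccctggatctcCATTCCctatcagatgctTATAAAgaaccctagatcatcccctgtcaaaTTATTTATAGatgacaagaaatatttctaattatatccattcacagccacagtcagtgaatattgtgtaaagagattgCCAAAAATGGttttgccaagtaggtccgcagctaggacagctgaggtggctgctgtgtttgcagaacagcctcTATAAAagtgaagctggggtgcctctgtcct

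The RefSeq table held 8 of the 10 genes. By the GENCODE positions, the stretches of Mylpf, Myl1 and Ckm lie wholly inside the gene, so a motif missing there may lie before another start. Among those 8 stretches, the E-box was found in 7, against 66.2% of the 32841 promoters in the table. The MCAT element was found in 4 (12.6% of all promoters) and the TATA box in 4 (12.4%). The MEF2 motif, the site of a muscle transcription factor family, was found in Myh1 and Myh4 and in 2.92% of all promoters. The CArG box, bound by serum response factor, was found in Acta1 and Myh4 and in 1.47% of all promoters. The Acta1 match lay at bases -73 to -64 before the start, and that of Myh4 at -104 to -95. The stretch of Tnnc2 held 2 E-boxes and none of the other 4 motifs. Myh1 and Myh4, neighbouring genes of the same cluster, had identical bases at 147 of 230 aligned positions (63.9%). These are matches of letters in short windows, and no binding was measured.

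The dissected tissue carried the defining transcripts of the ventral prostate in every library. Sbp, the spermine-binding protein gene, lay between 198342 and 256865 TPM, and Spink1 between 50788 and 119903 TPM. The 6 seminal vesicle genes of the list were below 1 TPM in all 8 libraries. Skp2, as the check of genotype, was 37.3 to 60.6 TPM in hSKP2-KI and 1.05 to 2.27 TPM in WT, and Pbsn was 93.0 to 174 TPM and 3980 to 9232 TPM. The 3 most abundant genes took 32.1% to 34.3% of TPM in hSKP2-KI and 40.4% to 45.8% in WT. A smaller share there raises all other genes on the TPM scale. For the skeletal muscle genes, hSKP2-KI replicate 4 and WT replicate 2 stood apart from the other 6 libraries, so results are given with and without both. In bulk tissue, fewer cells of a type and less RNA per cell cannot be told apart.

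The thick filament genes showed the 2 libraries most clearly. Myh4 encodes the myosin heavy chain of the fastest fibres, type IIB. Its TPM was listed at 0, 0.307, 0 and 12.3 in hSKP2-KI replicates 1 to 4, and at 0.0280, 12.6, 0.0427 and 0 in WT replicates 1 to 4. The level was thus near 0 in 6 libraries and almost the same in the remaining 2, which belong to different genotypes. Myh1 encodes the type IIX heavy chain. The 4 hSKP2-KI lobes held 4.71, 3.65, 4.56 and 25.8 TPM of Myh1, and the 4 WT lobes 2.68, 12.0, 8.03 and 6.14 TPM. Unlike Myh4, Myh1 was present in all 8 libraries, and WT replicate 2 was only 1.497-fold above the next WT library.

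Mylpf, the fast regulatory light chain, had 2.83, 1.099, 1.75 and 19.7 TPM in hSKP2-KI and 0.866, 11.4, 1.06 and 2.39 TPM in WT. The highest hSKP2-KI library was 6.96-fold above the next, and the highest WT library 4.77-fold. Myl1, the fast essential light chain, stood at 0.660, 0.721, 0.219 and 12.8 TPM in hSKP2-KI and at 0.0568, 8.45, 0.173 and 0.929 TPM in WT. All 4 thick filament genes were highest in hSKP2-KI replicate 4 and WT replicate 2 within their genotype, and the genotypes overlapped for each of them.

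**Figure D1:**
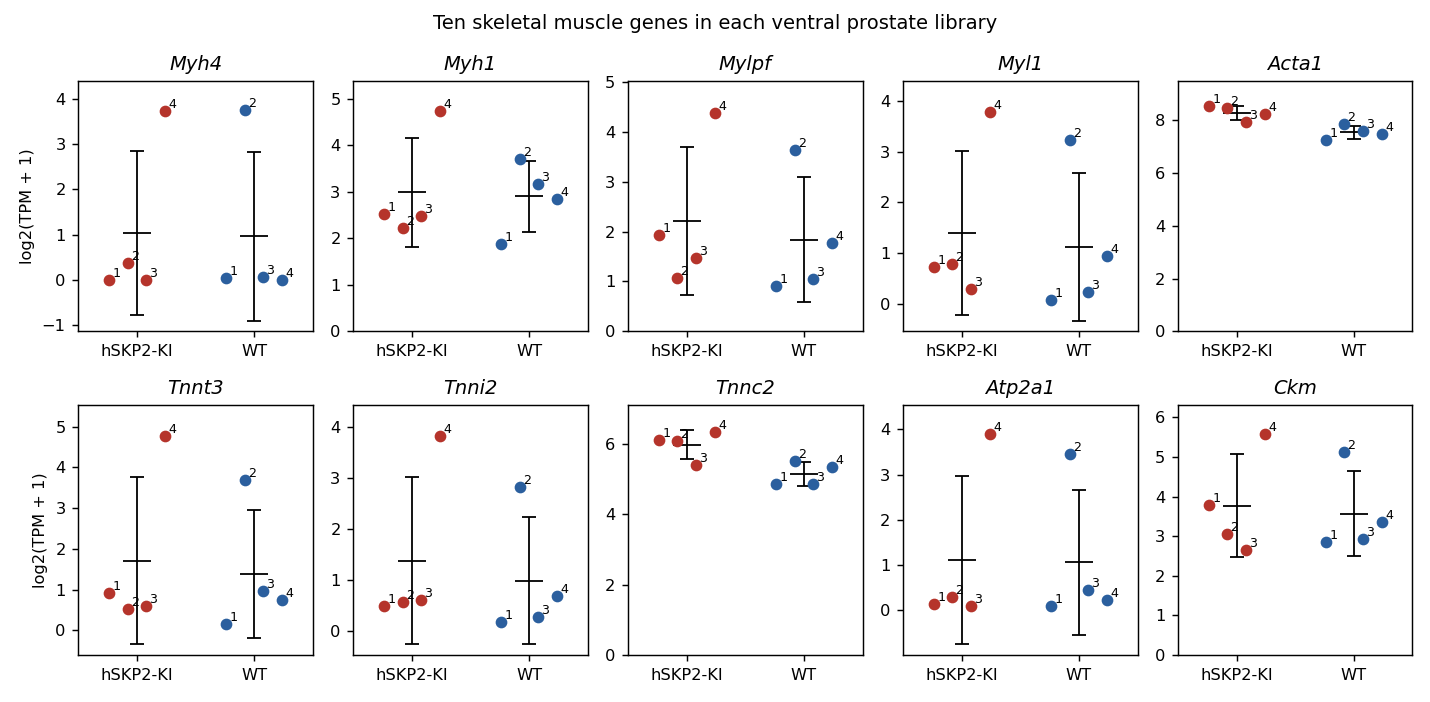
Each panel plots one gene, with log2(TPM + 1) on the vertical axis and genotype on the horizontal axis; points are libraries numbered by replicate, and the horizontal mark and bars are the mean and SD of 4 libraries. For 9 of the 10 genes, all but Acta1, hSKP2-KI replicate 4 and WT replicate 2 are the top points of their groups, with 26.5 and 12.0 TPM for Tnnt3, and Acta1 and Tnnc2 lie high in all 8 libraries.

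The thin filament genes fell into separate kinds. Acta1, skeletal alpha-actin, reached 370.03, 350.48, 244 and 305 TPM in hSKP2-KI replicates 1 to 4 and 151, 229, 194 and 180.03 TPM in WT replicates 1 to 4. It was the most abundant of the 10 genes in each library on the TPM scale. On that scale it was also the only one whose genotypes did not overlap, since the lowest hSKP2-KI lobe lay above the highest WT lobe. hSKP2-KI replicate 4 lay below replicates 1 and 2 of its group for Acta1. Tnnc2, the calcium-binding fast troponin C, had 68.3, 67.0, 41.4 and 80.4 TPM in hSKP2-KI and 28.3, 44.9, 28.1 and 40.1 TPM in WT. Here the 2 libraries were again the highest of their groups, but only 1.18-fold and 1.12-fold above the next.

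The partners of Tnnc2 in the fast troponin complex did not share its levels. Tnnt3, the tropomyosin-binding fast troponin T, had 0.890, 0.442, 0.517 and 26.5 TPM in hSKP2-KI and 0.115, 12.0, 0.935 and 0.665 TPM in WT. Fast troponin I, encoded by Tnni2, was measured at 0.391, 0.475, 0.516 and 13.1 TPM in hSKP2-KI and 0.123, 6.03, 0.210 and 0.589 TPM in WT. Both genes stayed below 1 TPM in the 6 other libraries, in which Tnnc2 was 28.1 to 68.3 TPM. In hSKP2-KI replicate 4 Tnnt3 was 29.8-fold above the next hSKP2-KI library, and in WT replicate 2 it was 12.8-fold above the next WT library.

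Atp2a1 encodes the fast sarcoplasmic calcium pump. Its TPM was 0.103, 0.225, 0.0704 and 13.9 in hSKP2-KI and 0.0730, 10.0, 0.371 and 0.174 in WT, with no library between 0.371 and 10.0 TPM. Ckm, muscle creatine kinase, had 12.9, 7.37, 5.24 and 47.1 TPM in hSKP2-KI and 6.20, 34.0, 6.62 and 9.33 TPM in WT. Ckm thus had a level of at least 5.24 TPM in every lobe and was 3.67-fold and 3.65-fold above the next library of its group in hSKP2-KI replicate 4 and WT replicate 2.

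High levels in the 2 libraries were shared by most of the genes. Both libraries were the highest of their groups for 9 of the 10 genes, the exception being Acta1, whereas 17.1% of the 14361 genes with at least 1 TPM in a library had this order. Both were over 2-fold above the highest of the other 6 libraries for 7 genes, Myh4, Mylpf, Myl1, Tnnt3, Tnni2, Atp2a1 and Ckm, compared with 38 genes in the whole table (0.265%). This fold was set after the values had been seen, and the counts are a description. Of those 38 genes, 16 were other genes of the skeletal muscle lists and 15 were outside all skeletal muscle lists. The lists do not hold every gene of striated muscle, and cardiac alpha-actin Actc1 was among those 15. Over 5-fold, 20 genes remained in the table, 5 of them among the 10.

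The amount of muscle RNA differed between the 2 libraries less than either differed from its group. The summed TPM of the 8 genes other than Acta1 and Tnnc2 was 171 in hSKP2-KI replicate 4, against 12.9 to 22.4 in the other hSKP2-KI lobes. It was 106 in WT replicate 2, against 10.1 to 20.2 in the other WT lobes. The ratio of hSKP2-KI replicate 4 to WT replicate 2 ran from 0.976 for Myh4 to 2.21 for Tnnt3, with a median of 1.63, and exceeded 1 for 9 of the 10 genes. All 10 genes together made up 0.0189% to 0.0557% of TPM, most of it Acta1 and Tnnc2 in every library. This sum did not follow the 2 libraries as the 8 genes did. It was 461 TPM in hSKP2-KI replicate 1 and 380 TPM in WT replicate 2.

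The comparison of hSKP2-KI with WT was made with limma on log2(TPM + 1) over the 13080 genes that had at least 1 TPM in at least 4 libraries. A difference on this scale understates the change of a gene with low TPM. Acta1 and Tnnc2 were higher in hSKP2-KI, and the other 3 genes that were tested did not pass. The log2 difference of Acta1 was 0.75 (SE 0.15, limma adjusted p = 0.00547), with 317 ± 55.9 TPM (SD, n = 4) in hSKP2-KI and 189 ± 32.4 TPM (SD, n = 4) in WT. For Tnnc2 it was 0.83 (SE 0.20, limma adjusted p = 0.0130), with 64.3 ± 16.4 and 35.3 ± 8.48 TPM (SD, n = 4 each). Of the 5 genes tested, 2 were thus higher and 0 lower, while 32.7% of all tested genes were higher. The median log2 difference was 0.38 over those 5 genes and 0.23 over all tested genes. The remaining 5 genes did not reach the level set for testing, because they had 1 TPM only in the 2 libraries.

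Ckm, Mylpf and Myh1 differed by 0.20 (SE 0.63), 0.38 (SE 0.73) and 0.09 (SE 0.53) on the log2 scale, with limma adjusted p of 0.805, 0.684 and 0.899. Their standard errors were larger than those of 99.8%, 99.9% and 99.7% of all tested genes, the median being 0.118. Without hSKP2-KI replicate 4 and WT replicate 2 these errors were 0.27, 0.28 and 0.29. They were still larger than those of 96.0%, 96.4% and 97.0% of all tested genes, the median being 0.135. The differences were then 0.12, 0.26 and -0.23, so that Myh1 changed sign, and none passed (limma adjusted p = 0.729, 0.461 and 0.530). In exact permutation tests (two-sided, 70 ways to assign the libraries, lowest p 0.0286), Acta1 had that p, Tnnc2 had an exact p of 0.0571 and the other 8 genes had exact p from 0.543 to 1. Of all tested genes, 34% had hSKP2-KI lobes above WT lobes without overlap, and Acta1 was the 1 gene of the 10 that did.

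**Figure D2:**
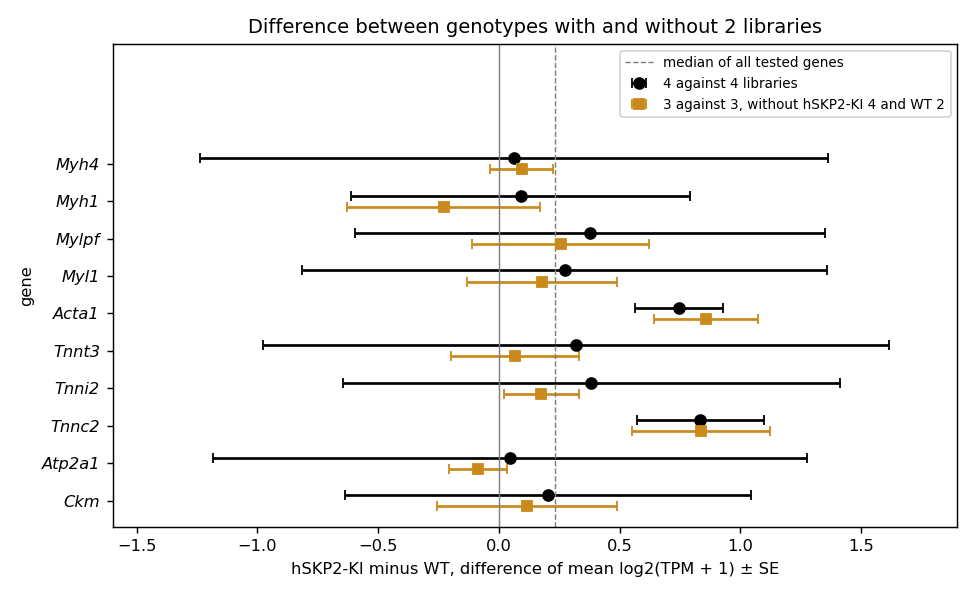
The horizontal axis gives hSKP2-KI minus WT as the difference of mean log2(TPM + 1) for each gene, with bars of 1 SE computed from the libraries of each gene alone; circles use all libraries and squares leave out hSKP2-KI replicate 4 and WT replicate 2, and the dashed line is the median of all tested genes at 0.23. Acta1 at 0.75 and 0.86 and Tnnc2 at 0.83 and 0.84 keep their place, and the bars of the other 8 genes shrink when the 2 libraries are left out.

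The calls of Acta1 and Tnnc2 held without the 2 libraries (log2 difference 0.86, SE 0.16, limma adjusted p = 0.0123, and 0.84, SE 0.21, limma adjusted p = 0.0246), where 22.2% of all tested genes were higher. They did not hold under median-ratio scaling, which brings the typical gene to the same level in each library. The log2 differences were then 0.48 for Acta1 (limma adjusted p = 0.0520) and 0.57 for Tnnc2 (limma adjusted p = 0.0804), and 0 of the 5 genes were called, against 6.92% of all tested genes called higher. The exact permutation p of Acta1 was then 0.0571, and also when TPM were rescaled without the 20 most abundant genes. Without overlap this p would be 0.0286, so the genotypes overlapped for Acta1 under both scalings. As deposited, 4272 genes were higher and 161 lower in hSKP2-KI, and 905 and 556 after median-ratio scaling, which moved the median of all tested genes from 0.23 to -0.01.

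Acta1 and Tnnc2 were set beside the smooth muscle genes, because these were also higher in hSKP2-KI. All 10 smooth muscle genes of the list were called higher by limma as deposited (median log2 difference 0.79), beside 32.7% of all tested genes, and 6 of the 10 after median-ratio scaling, beside 6.92%. Among the 10 was smooth muscle alpha-actin Acta2 at 669.6 to 982 TPM in hSKP2-KI and 485 to 592 TPM in WT. None of the 10 was highest in both hSKP2-KI replicate 4 and WT replicate 2. The ratio of Acta1 to Acta2 was 0.423, 0.357, 0.365 and 0.409 in hSKP2-KI and 0.311, 0.440, 0.357 and 0.304 in WT. These ratios overlapped between genotypes (0.388 ± 0.0326 and 0.353 ± 0.0625, SD, n = 4 each, two-sided exact permutation p = 0.343). Relative to the smooth muscle heavy chain Myh11, Acta1 and Tnnc2 likewise overlapped (exact permutation p = 0.600 and 0.429). The ratio of Tnnc2 to Acta1 was 0.170 to 0.263 in hSKP2-KI and 0.145 to 0.223 in WT (exact permutation p = 0.629). The part of smooth muscle in the levels of Acta1 and Tnnc2 was not tested.

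The type of fibre was read from the adult skeletal myosin heavy chains, whose TPM summed to 41.2 in hSKP2-KI replicate 4 and 27.9 in WT replicate 2, and to 4.06 to 9.90 in the other libraries. In hSKP2-KI replicate 4, Myh1 made up 62.8% of this sum and Myh4 29.8%, and in WT replicate 2 Myh1 made up 43.1% and Myh4 45.1%. In the 6 other libraries Myh4 was at most 3.77% of the sum and Myh1 45.0% to 81.2%. Myh2, the heavy chain of type IIA fibres, had 2.42 TPM in hSKP2-KI replicate 4 and 3.14 TPM in WT replicate 2, within the 1.15 to 3.87 TPM of the other 6 libraries. Myh7, the slow heavy chain, was below 1 TPM in all 8 libraries. In hSKP2-KI replicate 4 the excess was thus carried by Myh1 and Myh4, the heavy chains of IIX and IIB fibres. In WT replicate 2 it lay mostly in Myh4. There Myh1 had 12.0 TPM against 2.68 to 8.03 TPM in the other WT lobes. Myh2 was also the highest of its group there, against 1.33 to 2.47 TPM.

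**Figure D3:**
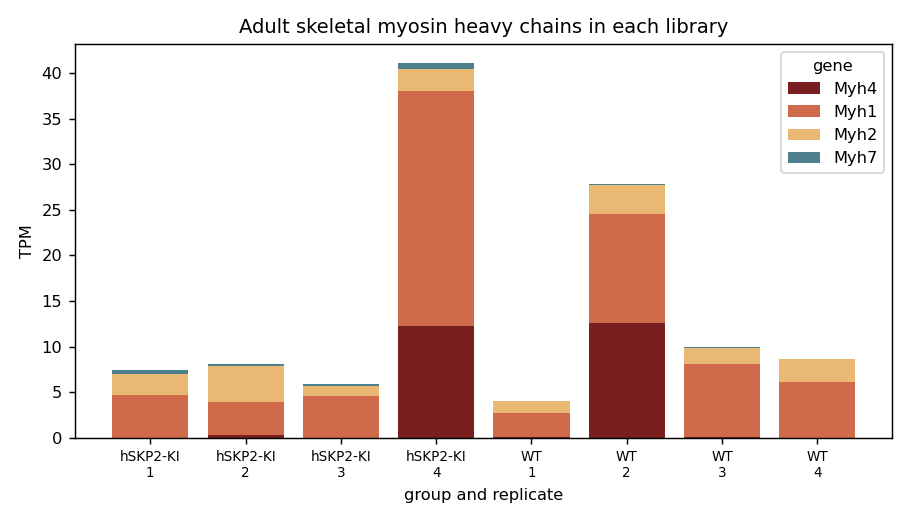
Stacked bars give the TPM of the 4 adult skeletal myosin heavy chains, Myh4, Myh1, Myh2 and Myh7, in each library on the vertical axis, by group and replicate on the horizontal axis. Bars of 41.2 TPM in hSKP2-KI replicate 4 and 27.9 TPM in WT replicate 2 stand above the other 6, and only these hold a visible share of Myh4.

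The rest of the skeletal muscle programme was followed in 55 other genes of 5 lists. Of these, 17 stayed below 1 TPM in all libraries. Of the 38 others, 29 had both hSKP2-KI replicate 4 and WT replicate 2 as the highest of their groups. Of all 14361 genes with at least 1 TPM in a library, 17.1% had this order. By list, this order was found in 8 of 8 metabolic genes, 12 of 15 sarcomere scaffold genes, 9 of 11 fast fibre genes, 8 of 12 genes of excitation-contraction coupling and 3 of 9 slow fibre genes, with the genes below 1 TPM included. No share over all genes was computed with those below 1 TPM included. Mb, the oxygen carrier myoglobin, had 21.7 and 11.8 TPM in the 2 libraries and 0.135 to 0.783 TPM in the others. Cox6a2, the muscle subunit of cytochrome oxidase, had 7.32 and 2.35 TPM there and was listed at 0 in the other 6. Sarcolipin, the small inhibitor of the calcium pump encoded by Sln, had 5.71 and 3.32 TPM, and 0 to 0.8294 TPM elsewhere.

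In the sarcomere scaffold, Tcap, which caps titin at the Z-disc, reached 21.5 and 7.96 TPM against 0.344 to 1.55 TPM in the 6 other libraries. Klhl41, a kelch protein of the sarcomere, reached 3.45 and 1.18 TPM against 0.0703 to 0.204 TPM. The fast fibre genes with this order included the calcium buffer parvalbumin (Pvalb, 4.76 and 2.02 TPM against 0 to 0.167) and the muscle phosphoglycerate mutase Pgam2 (8.93 and 5.42 TPM against 0.295 to 0.854). The genes that couple the action potential to calcium release were low: the release channel Ryr1 had 1.42 and 0.835 TPM against 0.0156 to 0.186 TPM, and 6 of the 12 genes of that list were below 1 TPM in all libraries.

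**Figure D4:**
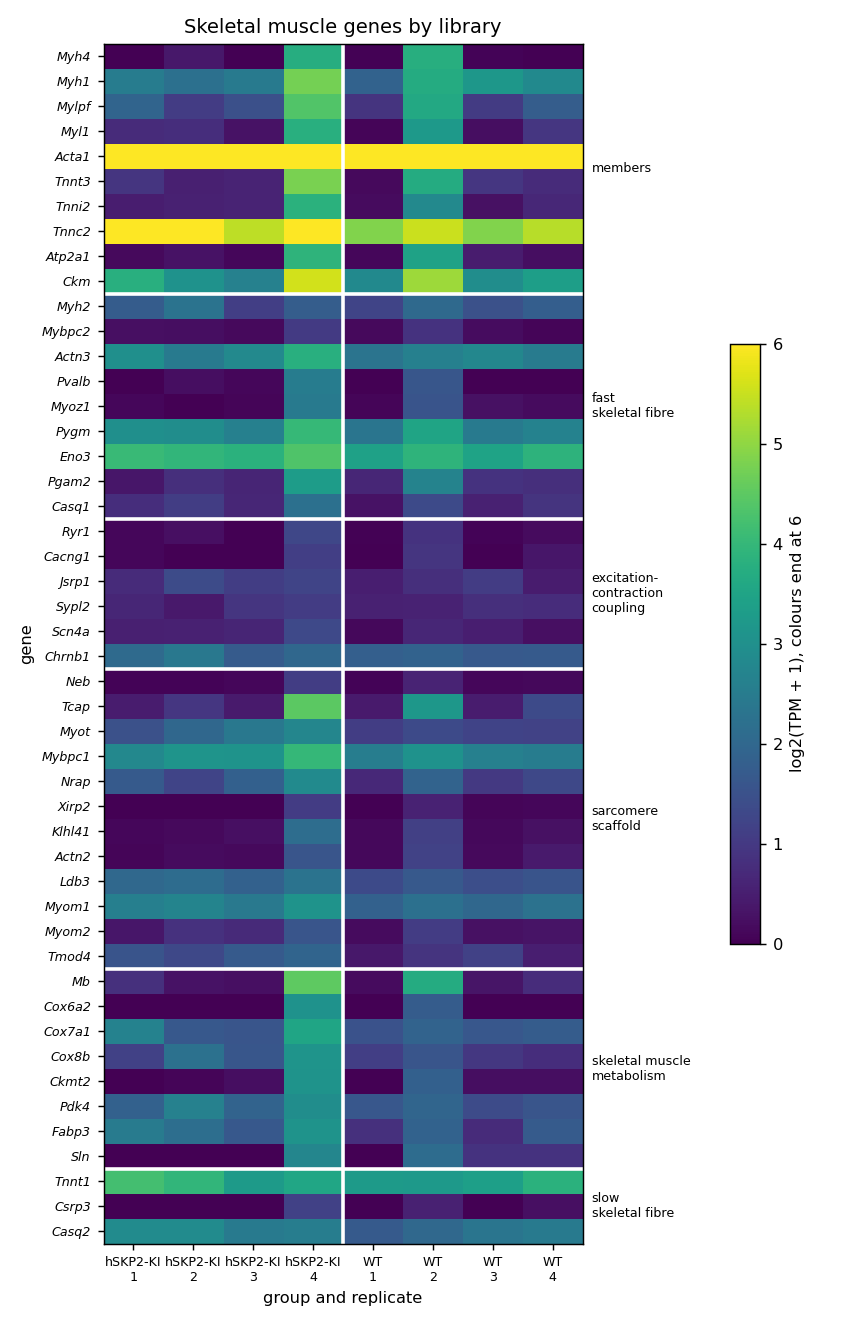
Rows are the 10 genes and the 38 other skeletal muscle genes with at least 1 TPM in a library, columns are libraries by group and replicate, and colour is log2(TPM + 1), ending at 6. The columns of hSKP2-KI replicate 4 and WT replicate 2 are brighter in most rows, as for Mb at 21.7 and 11.8 TPM, while Acta1, Tnnc2, Eno3 and Tnnt1 are bright in all 8.

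A part of the programme was present in every lobe, as Acta1 and Tnnc2 were. Tnnt1, slow troponin T, lay between 8.40 and 17.4 TPM and Eno3, muscle enolase, between 9.76 and 19.3 TPM. The sarcomere gene Mybpc1 (4.70 to 14.9 TPM), the fast alpha-actinin gene Actn3 (3.92 to 12.9 TPM), the glycogen phosphorylase gene Pygm (4.06 to 15.2 TPM) and Cox7a1 (1.85 to 10.5 TPM) were found in every lobe too and were highest in hSKP2-KI replicate 4. The acetylcholine receptor subunit gene Chrnb1 (2.20 to 4.32 TPM) and Ncam1 (6.67 to 12.6 TPM), an adhesion gene also of nerve, were found in every lobe as well. They were not highest in hSKP2-KI replicate 4. Of the 18 genes of the 5 lists that were tested, 7 were higher in hSKP2-KI and 0 lower (limma), again beside 32.7% of all tested genes higher. They were Tmod4 (log2 difference 0.88), Myot (0.96), Myom1 (0.61) and Ldb3 (0.57) of the sarcomere scaffold, the lipid and fuel genes Fabp3 (1.05) and Pdk4 (0.71), and the calcium store gene Casq2 (0.57). Ldb3 had 2.64 to 3.90 TPM in hSKP2-KI and 1.54 to 2.21 TPM in WT, without overlap. Tmod4, Myot, Myom1 and Casq2 did not overlap either, whereas Fabp3 and Pdk4 did. Of all tested genes, 34% were higher in hSKP2-KI without overlap. Without the 2 libraries 6 of the 18 genes were called, with Mybpc1 in place of Casq2 and Pdk4, beside 22.2% of all tested genes higher. After median-ratio scaling, Tmod4 and Myot were called, beside 6.92% of all tested genes. After that scaling without the 2 libraries 0 of the 18 were called, beside 2.03% of all tested genes.

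Genes of slow, heart and developing muscle served to compare the kinds of striated muscle. Of 9 genes of slow fibres 6 were below 1 TPM in all libraries, as were 5 of 8 heart genes and 7 of 8 genes of embryonic and regenerating muscle. Pax7, the satellite cell factor, and the heart genes Nppb and Myl7 were listed at 0 in all 8 libraries. The myogenic factor Myf6 was listed at 0.714 TPM in hSKP2-KI replicate 4 and 0.292 TPM in WT replicate 2, and at 0 in the other 6. Cardiac alpha-actin, Actc1, had 2.64 and 2.99 TPM in the 2 libraries and 0.176 to 0.488 TPM in the others. The heart troponins did not follow the 2 libraries: Tnni3 was 4.55 TPM in hSKP2-KI replicate 4, the lowest of its group, and 9.21 TPM in WT replicate 2. Tnnt2 was 7.29 and 1.74 TPM, within the range of the other libraries. As deposited, Tnnt2 was higher in hSKP2-KI (log2 difference 1.23, limma adjusted p = 0.0258) and Tnni3 lower (-0.49, limma adjusted p = 0.0385), beside 4272 genes higher and 161 lower. After median-ratio scaling only Tnni3 passed (-0.72, limma adjusted p = 0.0109). Without the 2 libraries neither passed (limma adjusted p = 0.0931 and 0.156).

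Markers of other tissues near the lobe were read in the same libraries. The summed TPM of 8 adipocyte genes was 1119 in hSKP2-KI replicate 4 against 194 to 470 in the other hSKP2-KI lobes, with 7 of 8 genes highest there, among them Cfd (460 TPM against 37.2 to 60.7) and Adipoq (73.5 TPM against 15.1 to 33.7). In WT replicate 2 the sum was 695, inside the 152 to 732 of the other WT lobes. The 5 erythrocyte genes, led by Hba-a1 and Hbb-bs, summed to 2373 TPM in WT replicate 2 against 663 to 901 in the other WT lobes, and to 2443 TPM in hSKP2-KI replicate 4, inside the 1916 to 2963 of the other hSKP2-KI lobes. The 5 urothelium genes, led by Upk1a, summed to 722 TPM in hSKP2-KI replicate 4, below the 759 to 1017 TPM of the other hSKP2-KI lobes. In WT replicate 2 they summed to 596 TPM, inside the 398 to 663 TPM of the other WT lobes. Upk1a alone had 651 TPM in hSKP2-KI replicate 4, so these sums mostly follow that gene. Of the 5 genes, 2 were the highest of their group in hSKP2-KI replicate 4, Upk2 and Upk3a. Upk2 had 13.6 TPM there, against 3.64 to 4.79 TPM in the other hSKP2-KI lobes and 0.983 to 1.67 TPM in WT. Upk3a, a plaque protein, had 12.5 TPM in hSKP2-KI replicate 4 and at most 0.312 TPM in the other 7 libraries. The 8 Schwann cell genes, led by Pmp22 and Mbp, and 7 tendon genes, led by Mkx and Chad, were summed likewise. In hSKP2-KI replicate 4 the Schwann cell sum was 59.9 TPM, inside the 49.3 to 63.7 TPM of its group, and the tendon sum was 44.1 TPM, above 34.3 to 41.1 TPM. In WT replicate 2 the Schwann cell sum was 45.2 TPM, above the 31.4 to 43.8 TPM of the other WT lobes, and the tendon sum was 28.0 TPM, inside 20.5 to 28.4 TPM. The part of these tissues in the muscle signal was not tested.

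**Figure D5:**
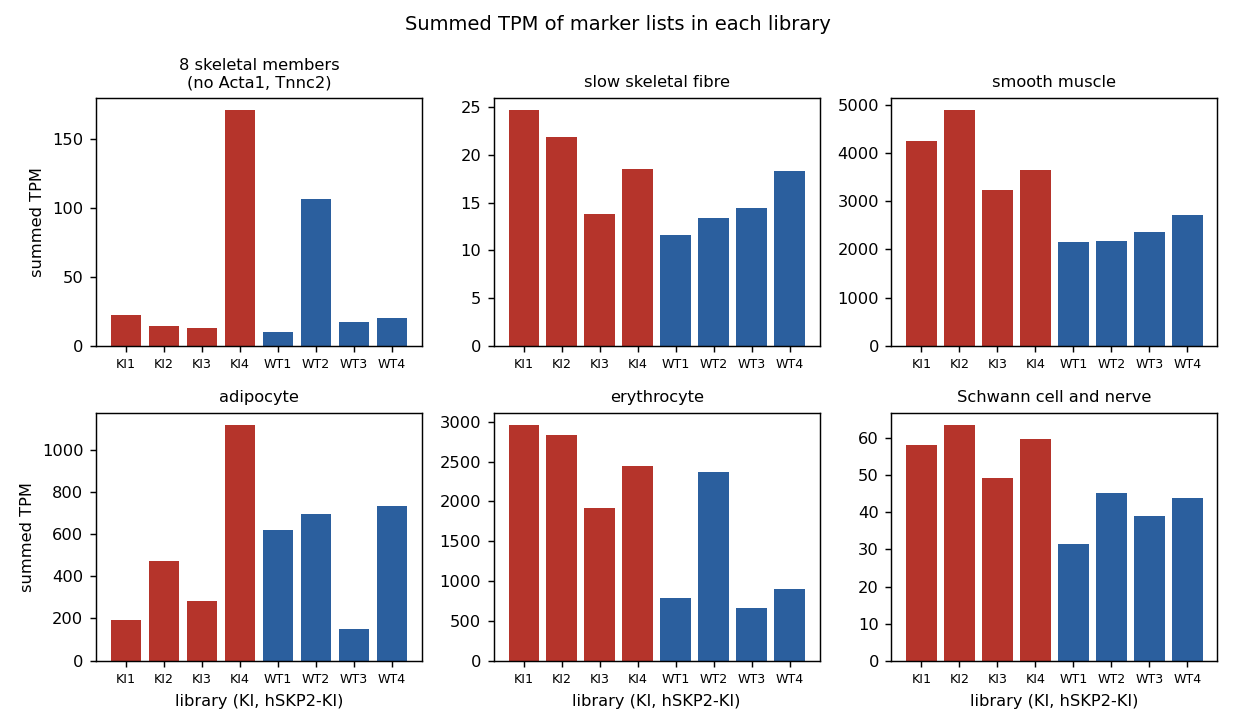
Bars give the summed TPM of 6 marker lists in each library (KI, hSKP2-KI), each panel with its own vertical axis from 0. The 8 skeletal muscle genes stand out in hSKP2-KI replicate 4 (171) and WT replicate 2 (106), the adipocyte genes in hSKP2-KI replicate 4 alone (1119), and the smooth muscle genes in neither.

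The genes whose levels were most like the mean log2(TPM + 1) of the 10 over the 8 libraries were Mb (Pearson r = 0.994), Ryr1 (0.986), Mybpc2 (0.984), Mylk4, Cmya5, Pvalb, Myoz3, Actn2, Cox6a2, Myoz1, Tcap, Ckmt2, H19, Pgam2 and Xirp2 (0.968). Of these 15, 11 were in the skeletal muscle lists, which do not hold every gene of striated muscle. The median r of all 14351 genes ranked was 0.285. These values describe the 8 libraries and rest on the same 2, which share no genotype. H19, an imprinted long non-coding RNA, had 1.53 and 0.994 TPM in the 2 libraries and 0.156 to 0.339 TPM in the others.

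Some of the 10 genes may share reads with other genes. By GRCm38 coordinates, Myh1 (chr11:67200052-67224575) and Myh4 (chr11:67238029-67260446) are neighbours on the plus strand. Among stretches of 150 bases of their transcripts, 2.49% of Myh1, mostly with Myh2, and 0.511% of Myh4 were identical to another gene. At 50 bases these shares were 26.7% and 18.9%. Acta1 (chr8:123891769-123894751, minus strand) had no identical stretch of 150 bases, and 2.22% at 50 bases, shared with actin pseudogenes and Actb. Tnnc2 (chr2:164777161-164779967, minus strand) shares 74% of its exonic bases with Ube2c on the opposite strand, which had 1.02 to 3.19 TPM. Atp2a1 shares 21.9% of its exonic bases with Rabep2 on the opposite strand, at 25.4 to 34.6 TPM. Whether counting used the strand is not given in the sources used here, so the reads of such pairs cannot be told apart. At those levels of Rabep2, Atp2a1 was 0.0704 to 0.371 TPM outside hSKP2-KI replicate 4 and WT replicate 2. The part of shared reads was not tested. On the opposite strand, Ckm shares 15.5% of its exonic bases with A930016O22Rik and Myh1 shares 8.11% with Myhas. Myl1 shared 1.93% of its 150-base stretches and 23.4% of its 50-base stretches with Mylf-ps. Tnnt3, Tnni2, Mylpf and Ckm held no stretch of 150 or 50 bases identical to another transcript read in the same direction.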

How the data were processed

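Ventral prostate RNA of 4 hSKP2-KI and 4 WT mice was sequenced by the authors with a library for each mouse. The reads were mapped with CLC software, and the submitters' processing notes name build mm10 (GRCm38). The version, annotation, strand setting and counting options are not given in the sources used here. The authors deposited 1 table of TPM, with 0 columns of other samples, and no depth per library can be taken from it. Genes with at least 1 TPM in at least 4 of 8 libraries (13080) were fitted as log2(TPM + 1) with limma 3.58.1 (trend, R 4.3.3), with Benjamini-Hochberg adjustment over all of them and a threshold of 0.05. The procedure was tested on simulated data. Single genes were compared by two-sided exact permutation (Python 3.11.15). Figures were drawn with matplotlib 3.10.9.

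The genes and lists were chosen with earlier results of these data known. Named were all 10 genes, abundant or called genes of each list, markers listed at 0, and the 15 genes most like the 10. Klhl41, Sln, Myh2, Myh7 and Upk3a were picked after their values were seen, as were the CArG box and the 2-fold rule for the 2 libraries. Mymk is not a gene of the table. Gene positions are those of GENCODE vM21.

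Alternatives were a pseudocount of 0.1, no filter, median-ratio scaling, TPM rescaled without the 20 most abundant genes, sample quality weights, a replicate block, leaving out each library, and, chosen after seeing the data, leaving out hSKP2-KI replicate 4 and WT replicate 2 together, also with median-ratio scaling. The labels do not say whether replicate numbers pair mice across genotypes. Correlations of deviations across genes for the 4 numbers were 0.22, -0.11, 0.17 and -0.01. They were not compared with those of other pairs, so they do not settle it.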

Additional observations from a re-analysis of the deposited data

Results flagged for a closer look

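Within each genotype, the highest or lowest of 4 libraries was called far from the rest where its gap to the nearest library was too large a share of the range by Dixon's test. For normally distributed values in groups chosen without sight of the data, chance gives this in about 1 of 20 groups. Here the test was run on untransformed TPM, and the genes and lists were chosen with earlier results of these data known. A summed set also left out Acta1 and Tnnc2. The count of groups is therefore a description and cannot be compared with that rate. Of 50 groups examined, 21 met the limit of Dixon's test, and all 21 pointed to hSKP2-KI replicate 4 (11) or WT replicate 2 (10).

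In hSKP2-KI replicate 4 the genes were Myh4 (12.3 TPM), Myh1 (25.8 TPM), Mylpf (19.7 TPM), Myl1 (12.8 TPM), Tnnt3 (26.5 TPM), Tnni2 (13.1 TPM) and Atp2a1 (13.9 TPM). In WT replicate 2 they were Myh4 (12.6 TPM), Mylpf (11.4 TPM), Myl1 (8.45 TPM), Tnnt3 (12.0 TPM), Tnni2 (6.03 TPM), Atp2a1 (10.0 TPM) and Ckm (34.0 TPM). Acta1 and Tnnc2 met the limit in neither genotype.

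Among summed TPM, the 8 genes without Acta1 and Tnnc2 stood apart at 171 in hSKP2-KI replicate 4 and 106 in WT replicate 2, and the metabolic list at 74.5 and 30.4. The fast fibre list (73.5) and the sarcomere scaffold list (73.9) stood apart in hSKP2-KI replicate 4 alone. The erythrocyte list stood apart at 2373 TPM in WT replicate 2, where the other WT libraries reached at most 901 TPM. The genes within a list share their libraries and are not separate evidence.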

How the results depend on the processing

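Scaling changed the calls most. Under median-ratio scaling and under rescaling without the 20 most abundant genes, 1461 and 1330 genes were called across the table (4433 as deposited), 0 and 1 of the 10 genes (Acta1 kept its call in the second), and 2 and 1 of the other skeletal muscle genes. With no filter, 4 of those other genes were called. Leaving out 1 library at a time gave 2993 to 4677 genes called, 2 to 2 of the 10 genes, and 4 (without WT replicate 1) to 8 (without WT replicate 2) of the other skeletal muscle genes. The median log2 difference of the tested genes among the 10 ran from -0.34 without hSKP2-KI replicate 4 to 0.84 without WT replicate 2. Without both, 3024 genes were called across the table, and with median-ratio scaling as well 438, with 0 of the 10 genes, 0 of the other skeletal muscle genes and 1 of the 10 smooth muscle genes. A replicate block gave 5128 genes called across the table, and the same 2 of the 10 genes, but the labels do not say that the numbers pair the mice. Under the block the exact permutation p of Acta1 was 0.125, the lowest it allows.

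No difference that changed sign passed a test. For Myh1 it was -0.13 after median-ratio scaling, -0.14 rescaled and -0.23 without both libraries. For Ckm it was -0.039 and -0.028 under these 2 scalings. For Atp2a1 it was -0.13 with a pseudocount of 0.1, -0.029 and -0.086 under the 2 scalings, and -0.09 without both libraries. Leaving out 1 library, the log2 differences ran from 0.65 to 0.87 for Acta1, 0.72 to 1.03 for Tnnc2, -0.84 to 1.00 for Myh4, -0.50 to 0.36 for Myh1, -0.34 to 0.98 for Mylpf, -0.52 to 0.98 for Myl1, -0.70 to 1.09 for Tnnt3, -0.44 to 0.99 for Tnni2, -0.89 to 0.84 for Atp2a1 and -0.40 to 0.72 for Ckm. The cause of these changes was not tested. TPM keeps no counts, so the counting error of the low values is unknown.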
